A study of Homo sapiens with 6 samples.

Results

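The surface proteins described here are carried by, or tested as targets on, prostate cancer cells, for imaging agents, radioligands and antibody drugs. They are encoded by 9 genes taken from a list of symbols: FOLH1, STEAP1, STEAP2, STEAP4, CD276, PSCA, ERBB2, ERBB3 and NECTIN4. All 9 were found among the 58735 genes of the deposited expression table, and 8 of them were among the 12960 genes with a mean of 1 FPKM or more (fragments per kilobase of exon, scaled per library), the level below which genes were left out of the tests. STEAP4 was the member below that level. The libraries came from C4-2B MDVR cells, which descend from the established prostate cancer line C4-2B and are resistant to enzalutamide. The 6 groups, each of 1 library after 2 days of treatment, were PTUPB at 20 uM plus enzalutamide, PTUPB at 10 uM plus enzalutamide, enzalutamide alone at 20 uM, PTUPB alone at 20 uM, PTUPB alone at 10 uM, and the vehicle DMSO. The labels give no enzalutamide dose for the combinations, so an equal dose was assumed in every fit that pools them. Enzalutamide is an antiandrogen used in prostate cancer, and PTUPB inhibits both cyclooxygenase-2 and soluble epoxide hydrolase. Which of the related antigens and receptors moved with these drugs was the question asked of the table.

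FOLH1 encodes prostate-specific membrane antigen, a zinc peptidase on the surface of prostate epithelium that releases glutamate and is the binding site of prostate cancer radioligands. In prostate cancer its transcript is known to rise when androgen signalling is blocked, whereas STEAP4 and the kallikreins are induced by androgen. The STEAP proteins span the membrane repeatedly and most of them reduce iron and copper. CD276 encodes the immune checkpoint ligand B7-H3, PSCA a lipid-anchored protein of the Ly6 family, ERBB2 and ERBB3 the HER2 receptor and its neuregulin-binding partner, and NECTIN4 an adhesion protein of epithelia.

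The members lie on different chromosomes apart from the STEAP genes. On GRCh38, by an own match of the deposited identifiers to GENCODE 29, FOLH1 (ENSG00000086205) occupies chromosome 11 from 49146635 to 49208670 on the minus strand. STEAP1 (ENSG00000164647) and STEAP2 (ENSG00000157214) are neighbours on the plus strand of chromosome 7, from 90154375 to 90164829 and from 90167590 to 90238137. STEAP4 (ENSG00000127954) lies on the same chromosome on the minus strand, from 88270892 to 88306891. ERBB2 (ENSG00000141736) is on chromosome 17 from 39687914 to 39730426, ERBB3 (ENSG00000065361) on chromosome 12 from 56076799 to 56103505, and CD276 (ENSG00000103855) on chromosome 15 from 73683966 to 73714518, all on the plus strand. NECTIN4 (ENSG00000143217) is on chromosome 1 from 161070995 to 161089599 on the minus strand. Values are for whole genes, over the exons of all transcripts.

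Promoter sequence from RefSeq's GRCh38.p14 table was used for 6 members, without FOLH1, PSCA and ERBB3, in 8 windows. Those shown are of the pair of neighbouring STEAP genes that moved together, of STEAP4, which moved differently from them, and of NECTIN4, which moved the other way at the higher PTUPB dose. Each runs 5′ to 3′ on the gene's own strand over the 250 bases before RefSeq's transcript start, which for STEAP1, STEAP2 and NECTIN4 lies inside the wider GENCODE span of the gene, and capitals mark a match to one of the searched motifs, on either strand. The STEAP1 window is chr7:90154219-90154468 on the plus strand, that of STEAP2 is chr7:90211490-90211739 on the plus strand, that of STEAP4 is chr7:88306895-88307144 on the minus strand, and that of NECTIN4 is chr1:161089559-161089808 on the minus strand.
STEAP1: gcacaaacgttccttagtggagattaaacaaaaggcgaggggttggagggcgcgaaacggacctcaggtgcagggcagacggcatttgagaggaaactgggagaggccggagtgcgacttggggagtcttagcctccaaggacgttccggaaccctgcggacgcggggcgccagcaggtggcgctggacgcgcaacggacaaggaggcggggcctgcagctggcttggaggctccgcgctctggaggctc
STEAP2: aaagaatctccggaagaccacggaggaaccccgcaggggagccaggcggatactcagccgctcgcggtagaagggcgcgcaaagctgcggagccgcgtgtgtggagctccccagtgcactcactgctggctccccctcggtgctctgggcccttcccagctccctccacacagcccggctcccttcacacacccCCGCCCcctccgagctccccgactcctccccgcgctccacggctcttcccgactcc
STEAP4: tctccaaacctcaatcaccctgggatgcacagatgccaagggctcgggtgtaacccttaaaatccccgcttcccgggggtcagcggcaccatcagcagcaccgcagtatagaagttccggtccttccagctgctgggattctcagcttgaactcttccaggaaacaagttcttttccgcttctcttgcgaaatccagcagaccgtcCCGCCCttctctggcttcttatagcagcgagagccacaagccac
NECTIN4: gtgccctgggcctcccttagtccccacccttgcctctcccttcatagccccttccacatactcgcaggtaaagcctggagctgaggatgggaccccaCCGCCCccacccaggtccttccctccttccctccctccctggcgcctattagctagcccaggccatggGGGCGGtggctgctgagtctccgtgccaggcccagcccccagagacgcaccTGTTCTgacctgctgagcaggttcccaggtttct

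The capitals in the STEAP2 and STEAP4 windows are the GC box GGGCGG, found once in each, and STEAP1 held none of the searched motifs. The NECTIN4 window held the GC box at 2 places and, near its end, AGAACA on the opposite strand. AGAACA is a single unit of the steroid response repeat, and the full repeat was not searched for. The GC box was present in 42.6% of all 35116 promoter windows of this length and the single unit AGAACA in 12.4%. The cyclic AMP response element TGACGTCA (1.65% of all windows) and the E-box CACGTG (6.34%) were not found in the 8 member windows. The CCAAT box was in 1 window each of STEAP2, CD276 and ERBB2 (32.0% of all windows), and the TATA box TATAAA (10.7%) was in the same STEAP2 window, which is not the one shown. These matches describe letters in a short window only.

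Fragments counted in genes, recovered from the deposited values and summed, numbered between 20156523 and 29450436 per library. The prostate label was met in every library by the structural luminal keratins. KRT8 was at 42.5 to 82.1 FPKM and KRT18 at 48.1 to 107 FPKM, while the other luminal markers were lower at 20 uM PTUPB than at 0 uM. The luminal list of 7 genes had none at 0 and summed to 472, 302 and 215 FPKM with enzalutamide at 0, 10 and 20 uM PTUPB, and to 686, 493 and 183 FPKM without it. Blood and endothelial markers were at or near 0, their lists summing to at most 0.0618 and 0.496 FPKM in any library. Basal markers summed to 0.0142, 0.0871 and 2.06 FPKM at 0, 10 and 20 uM PTUPB with enzalutamide, and to 0.595, 0.168 and 0.322 FPKM without it. The highest of these sums, in the library with 20 uM PTUPB plus enzalutamide, was mostly NGFR at 1.97 FPKM, while the basal markers KRT14 and TP63 were at 0 there. The stromal list of 6 genes summed to 2.39, 3.86 and 6.52 FPKM with enzalutamide, and to 3.56, 3.16 and 4.64 FPKM without it, and COL1A1 was its largest part in every library. The DMSO library stood apart in 2 stromal collagens and in breadth: COL1A2 had 204 fragments there and 0 to 4 in each other library, COL3A1 was at 0.521 FPKM against 0 to 0.0480, and 26013 genes were above 0 against 19522 to 24275. In bulk RNA, fewer cells of a type and less RNA per cell cannot be told apart.

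**Figure D1:**
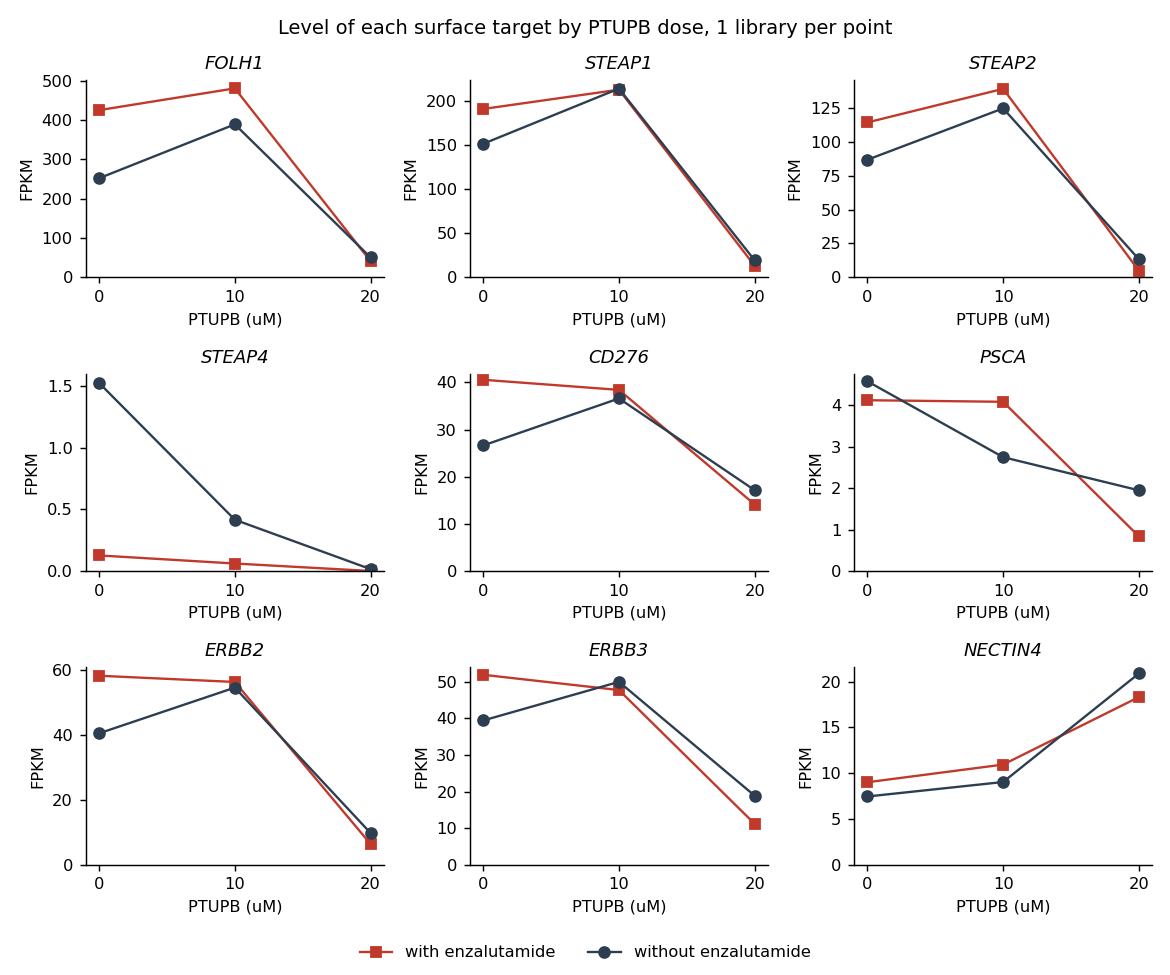
FPKM of the 9 surface target genes (y axes, each from 0) against PTUPB dose in uM (x axis), with enzalutamide (red squares) and without it (dark circles), 1 library per point and no error bars. FOLH1, STEAP1, STEAP2, ERBB2, ERBB3 and CD276 were lowest at 20 uM in both series, NECTIN4 was highest there, and STEAP4 was highest in DMSO.

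At 20 uM PTUPB most surface targets fell: FOLH1, STEAP1, STEAP2 and ERBB2 fell by 5.56-fold to 11.0-fold in the additive fit, ERBB3, PSCA and CD276 fell by 2.05-fold to 2.98-fold, and NECTIN4 alone among the 8 tested members rose, by 2.23-fold. The additive fit, made with limma over all 6 libraries on log2 of FPKM plus 1, holds PTUPB as 3 levels plus enzalutamide. Its p-values measure departure from additivity and not replicate spread, because each group is 1 library. Of the 8 tested members 7 were lower and 1 higher at a Benjamini-Hochberg adjusted p under 0.05, with a median of -2.02 on the log2 scale. Over all genes tested 18.2% were called lower and 15.9% higher, with a median of 0.00. In the single pair of libraries with enzalutamide 7 of 9 members were lower by log2 1 or more, as were 15.8% of genes, and none was higher (13.5% of genes). In the pair without it 6 members were lower (12.7% of genes) and 1 higher (9.47%). Counts by log2 1 in pairs of libraries are on log2 of FPKM plus 1. They cover all 9 members, STEAP4 included, whereas the shares of genes beside them are of the 12960 genes tested, which leave STEAP4 out. The stromal marker COL1A1 rose in the same contrast (0.96, limma adjusted p = 0.016), at 2.28, 3.67 and 6.47 FPKM at 0, 10 and 20 uM PTUPB with enzalutamide and 2.38, 3.11 and 4.6 FPKM without it. It was the 1 stromal gene of 6 tested, no basal marker was tested, and the part of either list in the members' differences was not tested.

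FOLH1 was the most abundant member in every library. With enzalutamide it stood at 426, 481 and 40.8 FPKM at 0, 10 and 20 uM PTUPB, and without it at 252, 389 and 50.3 FPKM. Both 20 uM libraries were below all 4 others. The fitted difference at 20 uM against 0 uM was -2.83 (SE 0.30, limma adjusted p = 0.0041), with 10.4-fold lower levels in the pair of libraries with enzalutamide and 5.01-fold lower levels in the pair without. In DMSO its level was at percentile 99.3 of the genes tested. Its paralogous copy FOLH1B, which may share reads with it, was at 0.0874 to 1.47 FPKM.

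STEAP1, which lacks the reductase part of its family, and STEAP2, a metalloreductase, followed the same course. STEAP1 stood at 191, 213 and 12.8 FPKM at 0, 10 and 20 uM PTUPB with enzalutamide, and at 151, 214 and 19.0 FPKM without it. STEAP2 stood at 115, 140 and 4.86 FPKM with enzalutamide, and at 87.0, 125 and 13.3 FPKM without it. For both genes the 20 uM libraries were the lowest, and the 10 uM libraries the highest, in each series. The fitted differences at 20 uM against 0 uM were -3.36 (SE 0.26, limma adjusted p = 0.0027) for STEAP1 and -3.46 (SE 0.42, limma adjusted p = 0.0052) for STEAP2. STEAP1 may share reads with its relative STEAP1B, which was at 0.255 to 1.43 FPKM, and both overlap the antisense gene STEAP2-AS1, at most 0.443 FPKM.

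ERBB2, the receptor without a known ligand that pairs with the other family members, stood at 58.4, 56.5 and 6.40 FPKM at 0, 10 and 20 uM PTUPB with enzalutamide, and at 40.6, 54.7 and 9.81 FPKM without it. ERBB3, whose own kinase is weak and which signals through its partner, stood at 51.9, 47.7 and 11.2 FPKM with enzalutamide, and at 39.4, 50.0 and 18.9 FPKM without it. Both genes were lowest in the 20 uM libraries, and ERBB2 lost the larger part of its level. The fitted differences at 20 uM against 0 uM were -2.47 (SE 0.28, limma adjusted p = 0.0046) for ERBB2 and -1.57 (SE 0.29, limma adjusted p = 0.013) for ERBB3. In DMSO the counting intervals of the 2 receptors overlapped, at 39.9 to 41.3 FPKM for ERBB2 and 38.7 to 40.2 FPKM for ERBB3 (95% exact Poisson, counting error only). In the library with 20 uM PTUPB plus enzalutamide they did not, at 6.05 to 6.77 FPKM and 10.7 to 11.7 FPKM. ERBB2 overlaps PGAP3 and MIEN1 on the opposite strand, whose levels were 3.99 to 11.9 and 19.3 to 31.6 FPKM.

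CD276 stood at 40.6, 38.4 and 14.1 FPKM at 0, 10 and 20 uM PTUPB with enzalutamide, and at 26.6, 36.6 and 17.1 FPKM without it. PSCA stood at 4.12, 4.08 and 0.835 FPKM with enzalutamide, and at 4.57, 2.74 and 1.94 FPKM without it. CD276 was lowest in the 20 uM libraries in both series, and so was PSCA, whose values rest on 27 and 81 fragments in the 20 uM libraries with and without enzalutamide. Their fitted differences at 20 uM against 0 uM were -1.03 (SE 0.25, limma adjusted p = 0.027) for CD276 and -1.20 (SE 0.29, limma adjusted p = 0.029) for PSCA. The level of PSCA was 4.93-fold lower in the pair with enzalutamide and 2.35-fold lower in the pair without, and with a pseudocount of 0.1 its fitted difference was -1.68. At 20 uM against 0 uM, the calls of CD276 and PSCA were ended by more of the alternatives tried than those of the other members. PSCA overlaps JRK on the opposite strand, at 1.03 to 3.34 FPKM.

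NECTIN4 went the other way. It stood at 9.02, 10.9 and 18.3 FPKM at 0, 10 and 20 uM PTUPB with enzalutamide, and at 7.46, 9.04 and 20.9 FPKM without it. Both 20 uM libraries were above all 4 others, and the fitted difference was 1.16 (SE 0.19, limma adjusted p = 0.00996). The pair of libraries with enzalutamide differed by 2.03-fold and the pair without by 2.80-fold. The order of the members changed accordingly: NECTIN4 was seventh in DMSO and second, after FOLH1, in the library with 20 uM PTUPB plus enzalutamide. In that library the counting intervals of CD276 and STEAP1, and of STEAP1 and ERBB3, overlapped, while every other pair of neighbours in the order was separated.

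Without the enzalutamide library, STEAP2 (adjusted p = 0.055), ERBB2 (0.052), ERBB3 (0.13), CD276 (0.25), PSCA (0.18) and NECTIN4 (0.091) no longer passed by limma, and without DMSO neither did CD276 (0.062), PSCA (0.15) and NECTIN4 (0.096). Without 20 uM PTUPB plus enzalutamide CD276 (0.074) and PSCA (0.075) did not pass, and FOLH1 and STEAP1 passed with any 1 of the 6 libraries left out; such fits have 1 residual degree of freedom.

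The higher dose was also set against 10 uM. Of the 8 tested members 6 were lower and NECTIN4 was higher, and PSCA did not pass (-0.91, SE 0.29, limma adjusted p = 0.062). Over all genes 16.9% were called lower and 16.5% higher. By log2 1 or more, 7 of 9 members were lower and none higher with enzalutamide (14.7% and 13.7% of genes), and 6 were lower and 1 higher without it (13.1% and 9.27%). The fitted differences were -3.86 for STEAP2, -3.69 for STEAP1, -3.23 for FOLH1, -2.66 for ERBB2, -1.68 for ERBB3, -1.22 for CD276 and 0.91 for NECTIN4. Without 10 uM PTUPB, CD276 (adjusted p = 0.10), ERBB3 (0.062) and NECTIN4 (0.16) did not pass by limma, nor did they without 10 uM PTUPB plus enzalutamide (0.090, 0.064 and 0.10). NECTIN4 also missed without DMSO (0.053) or enzalutamide (0.053), and PSCA passed without 20 uM PTUPB (-1.33, 0.020).

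**Figure D2:**
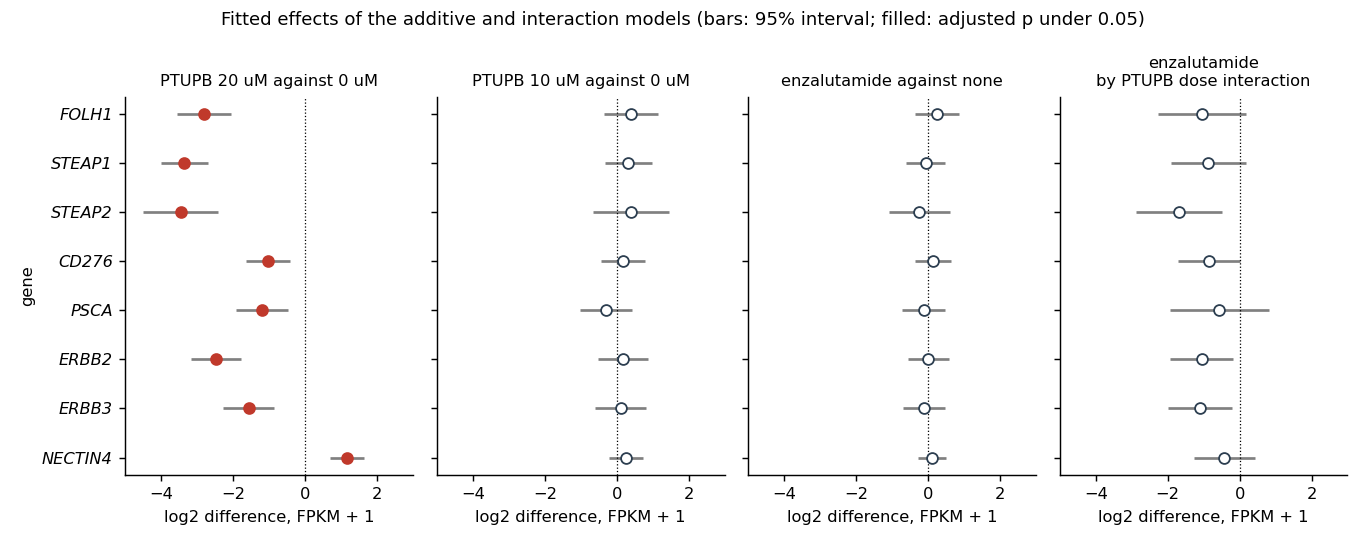
Fitted log2 differences (x axis, log2 of FPKM plus 1) of the 8 tested members (rows) for 20 uM and 10 uM PTUPB against 0 uM, for enzalutamide against none and for the interaction, with bars for the 95% interval and filled points for an adjusted p under 0.05. All points of the first panel are filled, with STEAP2 lowest at -3.46 and NECTIN4 highest at 1.16, and all points of the other panels are open.

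At 10 uM PTUPB no member passed, and FOLH1, STEAP1, STEAP2 and NECTIN4 were higher than in the matched library without PTUPB in both pairs as deposited. Over all genes 0% were called (0 of 12960 by limma, 480 at unadjusted p under 0.05, and 0 by limma-voom). In the pair without enzalutamide, 7 of 9 members were higher in the 10 uM library, led by FOLH1 at 1.54-fold, STEAP2 at 1.44-fold and STEAP1 at 1.41-fold. After rescaling to TPM 6 of 9 were higher in this pair, and NECTIN4 turned to 0.977-fold. STEAP4 and PSCA were lower there, at 0.273-fold and 0.600-fold. Over all genes the median log2 difference of this pair was -0.03 as deposited and -0.33 after TPM. In the pair with enzalutamide 4 of 9 were higher, FOLH1 by 1.13-fold, STEAP2 by 1.22-fold, STEAP1 by 1.11-fold and NECTIN4 by 1.21-fold. In this pair 6 of 9 were higher after TPM and 7 of 9 with total fragments. Its median over all genes was -0.05 as deposited, 0.01 after TPM and 0.04 with total fragments. On log2 of FPKM plus 1 no member was past log2 1 in either pair, while 1.57% of genes were lower and 2.24% higher with enzalutamide, and 0.772% lower and 1.62% higher without it. With a pseudocount of 0.1, STEAP4 was at -1.66 in the pair without enzalutamide. The fitted differences had intervals that included 0 for all 8 tested members, for example 0.40 for FOLH1 with a 95% interval from -0.35 to 1.15.

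Enzalutamide alone gave a library with more FOLH1, CD276 and ERBB2 and much less STEAP4 than DMSO. FOLH1 stood at 426 FPKM with enzalutamide against 252 FPKM in DMSO, which is 1.69-fold, CD276 at 40.6 against 26.6 FPKM, which is 1.52-fold, and ERBB2 at 58.4 against 40.6 FPKM, which is 1.44-fold. These 3 members were above 1 in every scaling, at 1.25-fold, 1.13-fold and 1.07-fold after rescaling to TPM. STEAP1, STEAP2, ERBB3 and NECTIN4 were also higher as deposited, by 1.21-fold to 1.32-fold, but at 0.897-fold to 0.978-fold after TPM, which moves the median log2 difference of all genes in this pair to -0.41. As deposited 7 of 9 members were higher and after TPM 3 of 9. STEAP4, which is not among the genes tested, was the 1 member past log2 1 (of FPKM plus 1), and it was lower. Of the genes tested 1.37% were lower by that margin and 1.31% higher.

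**Figure D3:**
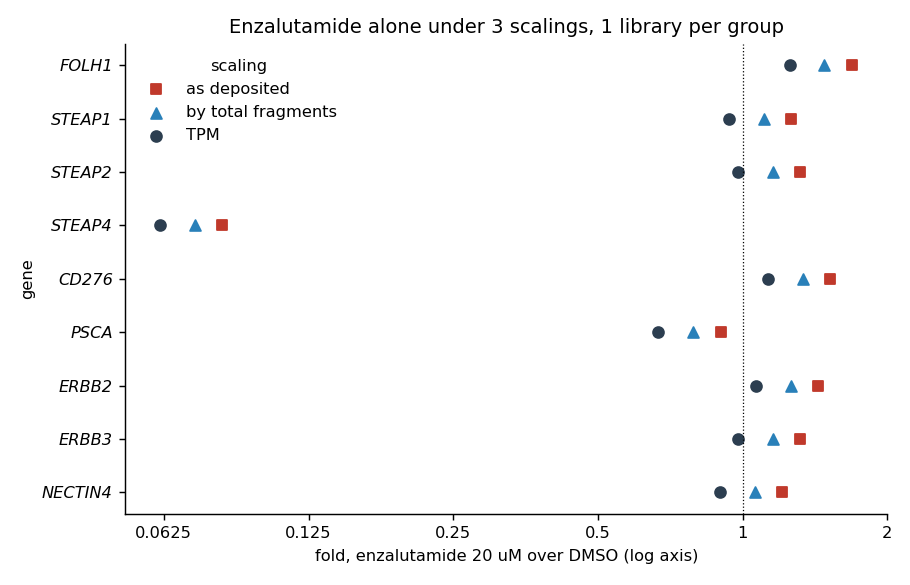
Fold of each member in the library with enzalutamide at 20 uM over that with DMSO (x axis, log scale) for the deposited scaling (red squares), scaling by total fragments (blue triangles) and TPM (dark circles), 1 library per group and no error bars. FOLH1, CD276 and ERBB2 lie right of 1 in all 3 scalings, PSCA and STEAP4 lie left of 1 in all 3, and the others cross 1.

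STEAP4, a metalloreductase known to be induced by androgen in prostate cells, was the scarcest member. It stood at 0.126, 0.0606 and 0 FPKM at 0, 10 and 20 uM PTUPB with enzalutamide, from 40, 18 and 0 fragments, and at 1.52, 0.415 and 0.0151 FPKM without it, from 512, 138 and 4 fragments. The count of 0 allows up to 0.0145 FPKM by a floor of 3 fragments and up to 0.0179 FPKM by the exact 95% Poisson interval. At 0 and 10 uM PTUPB the library with enzalutamide was below its match, at 20 uM the libraries were not separated by their counts, and each step of dose was lower than the one before. Enzalutamide alone was 12.1-fold lower than DMSO (95% counting interval 8.76-fold to 17.1-fold), and at 10 uM PTUPB the library with enzalutamide was 6.85-fold lower than that without (4.18-fold to 11.9-fold). PTUPB alone was 3.67-fold lower than DMSO at 10 uM and 101-fold lower at 20 uM (39.3-fold to 373-fold), where 4 fragments were counted. The DMSO library also carried the stromal collagens COL1A2 and COL3A1 given above, and their part in the STEAP4 level was not tested. The folds against DMSO given here all rest on that 1 library. With no filter on low values limma did not call STEAP4 for any effect, with adjusted p = 0.27 for 20 uM PTUPB and 0.84 for enzalutamide on the log2 scale with a pseudocount of 1, which compresses such low values.

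The ratio of the library with enzalutamide to its match was lower at higher PTUPB dose for most members, a pattern that did not pass its test. For FOLH1 the library with enzalutamide was at 1.69-fold, 1.24-fold and 0.811-fold of its match at 0, 10 and 20 uM PTUPB, and for ERBB2 at 1.44-fold, 1.03-fold and 0.653-fold. STEAP2 ran from 1.32-fold through 1.12-fold to 0.365-fold and ERBB3 from 1.32-fold through 0.955-fold to 0.592-fold. Not every member fell at each step: PSCA was at 0.900-fold, 1.49-fold and 0.429-fold, and NECTIN4 at 1.21-fold, 1.21-fold and 0.877-fold. STEAP4 was at 0.0827-fold at 0 uM and 0.146-fold at 10 uM, with too few fragments for a ratio at 20 uM. At 20 uM the 8 tested members were lower in the library with enzalutamide in every scaling tried. STEAP4 had 0 against 4 fragments there, which the counts do not separate. The median log2 difference of all genes in this pair was 0.04 as deposited, -0.24 after TPM and -0.12 with total fragments. On log2 of FPKM plus 1 as deposited, STEAP2 was the 1 member past log2 1, lower, in a pair where 2.9% of genes were lower and 3.83% higher by that margin. PSCA passed it too with a pseudocount of 0.1 (-1.13) and after TPM (-1.24), and ERBB3 after TPM (-1.05). At 10 uM no member was past it on log2 of FPKM plus 1, with 2.01% of genes lower and 1.41% higher, but STEAP4 was at -1.68 with a pseudocount of 0.1. At 0 uM 7 of 9 were higher as deposited, where the median log2 difference of all genes was -0.0025.

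The test of that change, the interaction of enzalutamide with linear PTUPB dose, called no member and no gene (0% of 12960 by limma, 1219 at unadjusted p under 0.05; limma-voom called 23). All 8 fitted interactions were negative, from -0.42 for NECTIN4 to -1.68 for STEAP2, with a median of -0.96 against 0.04 over all genes. STEAP4, fitted only with no filter on low values, went the other way at 1.14 and was not called. The values nearest to the threshold were those of STEAP2 (SE 0.48, unadjusted p = 0.014, limma adjusted p = 0.45), ERBB3 (-1.10, SE 0.36, adjusted p = 0.49) and ERBB2 (-1.06, SE 0.35, adjusted p = 0.49). After rescaling to TPM, where 301 genes were called, STEAP2 passed (-1.67, limma adjusted p = 0.0013) and the other 7 did not. Pooled over dose, the fitted enzalutamide effect called no member and no gene (0% by limma, 626 at unadjusted p under 0.05; 1 gene by limma-voom), and was 0.25 for FOLH1 (95% interval -0.36 to 0.87) and 0.00 for ERBB2 (-0.56 to 0.57).

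**Figure D4:**
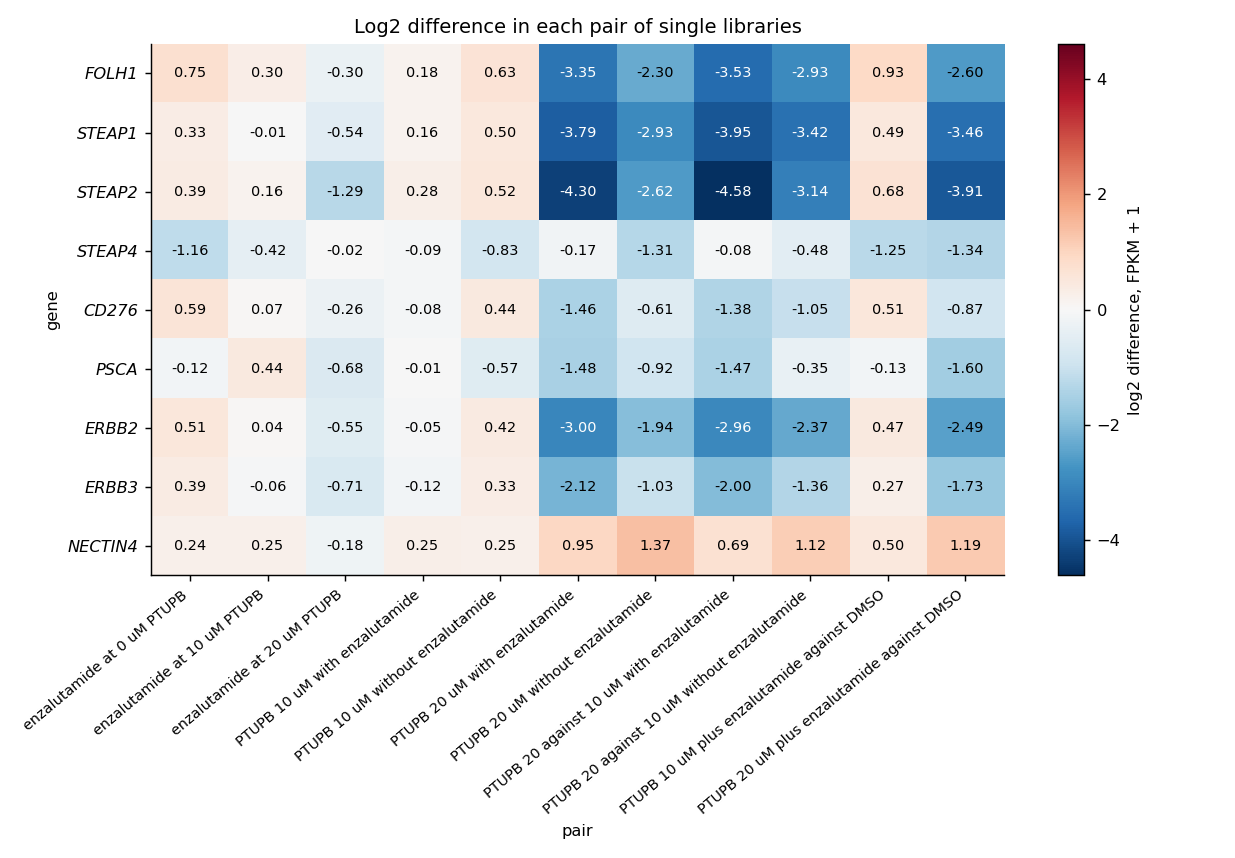
Log2 difference of FPKM plus 1 (colour, printed in each cell) of the 9 members (rows) in 11 pairs of single libraries (columns), positive where the treated or higher-dose library is higher, with no replicates. The first 3 columns run from positive to negative for FOLH1, STEAP1, STEAP2, CD276, ERBB2, ERBB3 and NECTIN4 as PTUPB dose increases, and the columns that set 20 uM PTUPB against a lower dose or DMSO are the darkest.

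Against DMSO, the combination with 10 uM PTUPB had the highest FOLH1 level of the series, 481 against 252 FPKM (1.91-fold, or 1.49-fold after TPM). STEAP2 was at 1.60-fold, NECTIN4 at 1.47-fold, CD276 at 1.44-fold, STEAP1 at 1.41-fold and ERBB2 at 1.39-fold of DMSO in that library, and each remained above 1 after TPM, whereas ERBB3 at 1.21-fold turned to 0.946-fold. STEAP4 was 25.1-fold lower and the 1 member past log2 1, with 2.58% of genes lower and 2.71% higher by that margin. The combination with 20 uM PTUPB had 17.9-fold less STEAP2, 11.8-fold less STEAP1, 6.34-fold less ERBB2 and 6.18-fold less FOLH1 than DMSO, and 2.46-fold more NECTIN4. In that pair 1 member was past log2 1 on the higher side, with 14% of genes, and 7 on the lower side, with 15%. After TPM and with total fragments NECTIN4 was no longer past it (0.94 and 0.95), and CD276 was, on the lower side (-1.23 and -1.12). All comparisons with DMSO share that 1 library.

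Among the members that fell, PSCA had the lowest correlations with the others over the 6 libraries, with Pearson's r of log2 levels from 0.832 to 0.912. The root mean square difference of centred log2 profiles reached 1.29 between STEAP2 and PSCA and 1.24 between STEAP2 and CD276. The same r was 0.993 between STEAP1 and STEAP2, 0.997 between STEAP1 and ERBB2, 0.995 between FOLH1 and ERBB2 and 0.991 between ERBB2 and ERBB3, and between -0.806 and -0.913 for NECTIN4 with the others. These are descriptions over 6 libraries that share the contrast between 20 uM PTUPB and the rest. By root mean square difference of centred log2 profiles among 10692 other protein-coding genes, the nearest to STEAP2 were STEAP1 (0.23) and the luminal transcription factor gene FOXA1 (0.28). FOXA1 stood at 75.5, 76.3 and 3.12 FPKM with enzalutamide and at 86.7, 73.6 and 7.69 FPKM without it. The nearest to FOLH1 were the membrane protease gene MMP16 (0.098) and the zinc transporter gene SLC30A4 (0.15). Those nearest to STEAP1 were VWA1 (0.14) and the glucagon gene GCG (0.21), and those nearest to ERBB2 were the receptor phosphatase gene PTPRS (0.080) and TMEM14A (0.12). For ERBB3 they were TTPA (0.064) and the acyltransferase gene AGPAT3 (0.068), for CD276 TMEM62 (0.054) and the serine synthesis gene PSPH (0.054), for PSCA GYG2 (0.11) and the kinase gene PTK2B (0.13), and for NECTIN4 MICALL1 (0.055) and the kinase gene BRSK1 (0.055). In the library with 20 uM PTUPB plus enzalutamide, TTPA and GCG were at 0 FPKM and MMP16 at 0.612 FPKM. The pseudocount of 1 compresses such low values, so their folds can differ from those of the members they match.

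Relatives of the members were read from a list for each family, chosen with earlier results of these data known, and each count is set against the 18.2% of all genes lower and 15.9% higher at 20 uM PTUPB. Of 13 ERBB receptor and ligand genes 4 were tested, and EGFR fell at 20 uM PTUPB (-1.30, SE 0.33, limma adjusted p = 0.032), to 3.92 FPKM with enzalutamide against 18.5 FPKM for enzalutamide alone, and to 9.75 against 15.5 FPKM in DMSO. ERBB4 and the neuregulin gene NRG1 were at 0 in every library. The 3 ligand genes tested ran from -0.25 to 0.39 and did not pass. Of 13 adaptors and regulators 3 fell and 1 rose, against 18.2% and 15.9% of all genes. The receptor inhibitor gene ERRFI1 rose (1.40, SE 0.20, limma adjusted p = 0.0075), whereas LRIG1, which promotes receptor degradation, fell (-1.93, SE 0.19, limma adjusted p = 0.0035), as did LRIG3 (-0.81) and the HER2 adaptor gene GRB7 (-0.68), which neighbours ERBB2.

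STEAP3, the remaining reductase of its family, fell by 1.42 on the log2 scale (SE 0.32, limma adjusted p = 0.023), to 1.79 and 4.26 FPKM at 20 uM with and without enzalutamide against 10.6 and 7.99 FPKM without PTUPB. The peptidase relatives of FOLH1 that were tested, NAALAD2 (-1.23) and NAALADL2 (-1.60), also fell, 2 of 4 on that list. Of 9 B7 relatives of CD276, 2 were tested and none passed: CD274, the gene of PD-L1, was at 0.92 (limma adjusted p = 0.16) and NCR3LG1 at 0.42. Of the 7 nectins and partners 6 were tested, 3 fell and 1 rose, against 18.2% and 15.9% of all genes. NECTIN3 (-1.13, SE 0.16, limma adjusted p = 0.0072), CADM4 (-0.80) and NECTIN2 (-0.65) fell, and the poliovirus receptor gene PVR rose (0.71, limma adjusted p = 0.047). In the Ly6 family of PSCA, LY6E fell (-2.27, SE 0.23, limma adjusted p = 0.0038), CD59 and LYPD3 did not pass, and the other 5 of 8 were not tested.

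Other carcinoma surface antigens numbered 18 on their list, of which 9 were tested, 3 fell and none rose, against 18.2% and 15.9% of all genes (median -0.47, against 0.00 over all genes). The choline transporter gene SLC44A4 (-1.45, SE 0.20, limma adjusted p = 0.0069), the zinc transporter gene SLC39A6 (-0.91) and the Notch ligand gene DLL3 (-0.86) fell. The epithelial adhesion gene EPCAM, named here after its values were seen, stood at 77.8 and 93.2 FPKM at 20 uM with and without enzalutamide against 118 and 80.6 FPKM without PTUPB (-0.20, limma adjusted p = 0.59). The 6 that did not pass ran from -1.28 to 0.82.

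Of the 7 luminal markers 5 fell at 20 uM and none rose, against 18.2% and 15.9% of all genes (median -3.04, against 0.00 over all genes). The kallikrein genes KLK3 (-5.66) and KLK2 (-4.47) fell most, followed by FOXA1 (-3.78) and the homeobox gene HOXB13 (-3.04, SE 0.18, limma adjusted p = 0.0021), while KRT8 (0.49) and KRT18 (0.48) did not pass. With enzalutamide alone, KLK3 was at 56.6 FPKM against 105 FPKM in DMSO, in the pair in which FOLH1 was at 426 against 252 FPKM. None of the genes on these lists was called for 10 uM PTUPB, for enzalutamide or for the interaction.

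**Figure D5:**
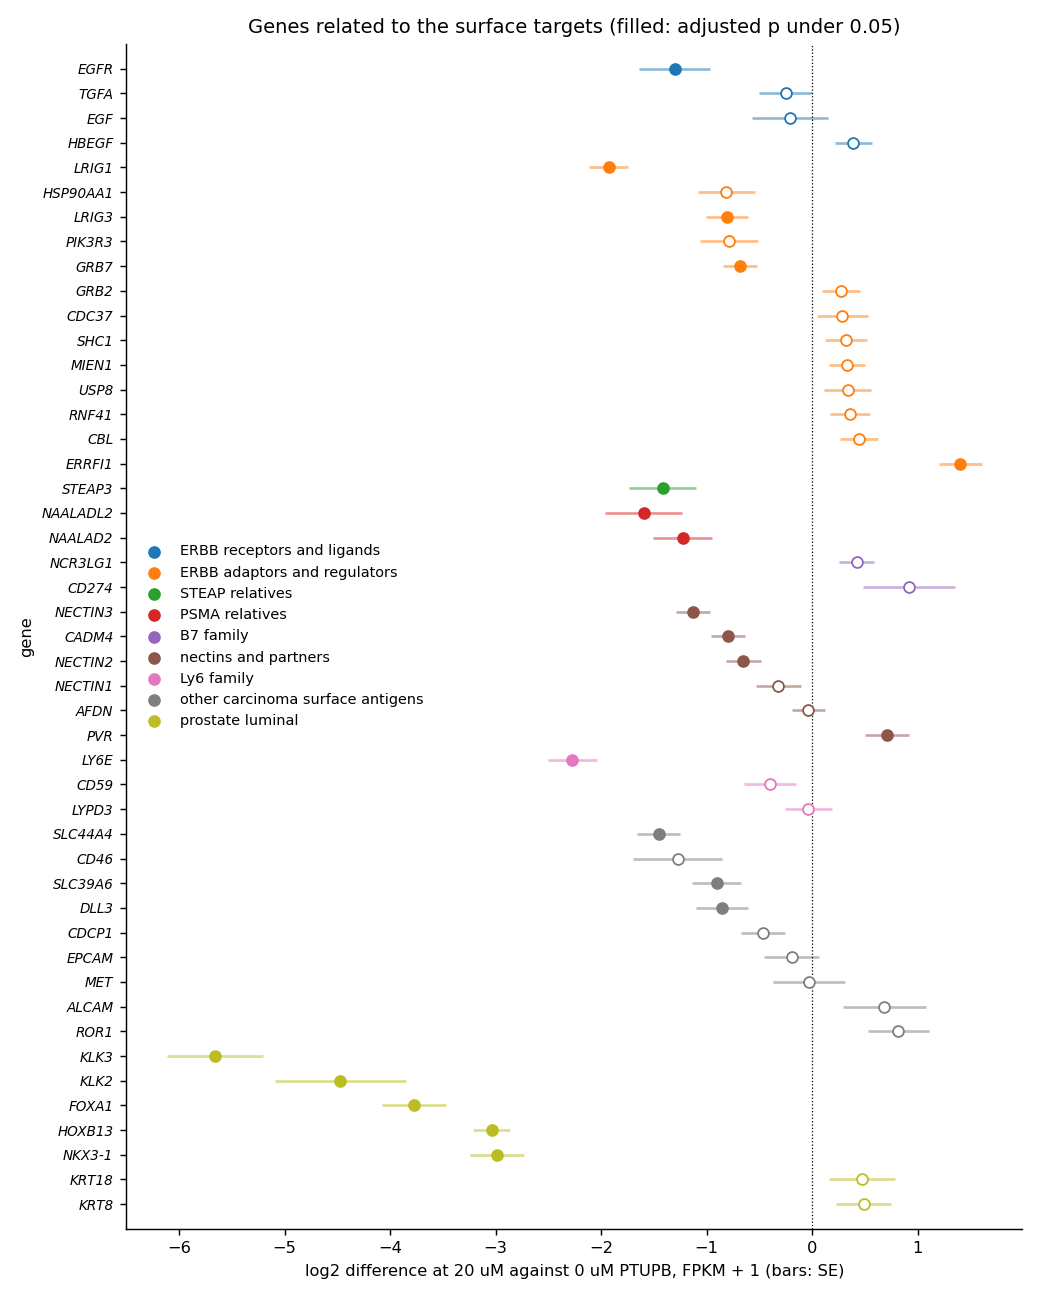
Fitted log2 difference at 20 uM against 0 uM PTUPB (x axis, log2 of FPKM plus 1, bars for SE) of the tested relatives of the surface targets and of luminal markers (rows, coloured by list), filled where the adjusted p was under 0.05. ERRFI1 at 1.40 and PVR at 0.71 are the filled points right of 0, and KLK3, KLK2, FOXA1 and HOXB13 lie farthest left.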

How the data were processed

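Gene expression was measured by paired-end RNA sequencing on C4-2B MDVR cells, with 6 libraries in all. The authors deposited FPKM values. The submitters' processing notes name HISAT and Cufflinks without versions, and the genome build and the use of strand have not been given in the sources used here. Genes that overlap or share sequence are therefore uncertain. Each value times its GENCODE 29 exon length was a whole multiple of 1 step per library (100% of values within 0.05 fragments), which gave fragments. Column sums ran from 264004 to 355658 FPKM, so TPM and total-fragment scalings were tried.

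Values were tested as log2 of FPKM plus 1 in two-sided tests by limma (version 3.58.1, under R 4.3.3; spread modelled as a trend on mean level), adjusted over 12960 genes by the Benjamini-Hochberg method. The additive model has 2 residual degrees of freedom and the interaction model 1. On simulated data the false calls of the additive model exceeded the aimed share, so calls are not held to 0.05. The interaction model was not simulated. Folds between libraries are ratios of deposited FPKM, given where both hold more than 3 fragments, and folds of the additive fit are fitted differences of log2 of FPKM plus 1 taken out of the log. Counting intervals are exact and cover counting error only. All members are named; from each list, up to 4 called genes by size, and some that did not pass, chosen after their values were seen. Members and lists were chosen with earlier results of these data known. Other steps used Python 3.11.15. Some genes of these lists are not reported here.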

Additional observations from a re-analysis of the deposited data

How the results depend on the processing

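Alternatives were a pseudocount of 0.1, no filter or a mean of 5 FPKM or more, TPM, total fragments, limma-voom, no intensity trend, a linear PTUPB dose, and each library left out. For 20 uM against 0 uM PTUPB, 4426 genes were called, against 1201 with no filter and 0 with a linear dose (4421 at unadjusted p under 0.05 by limma), and 324 to 5403 with 1 library left out (324 without enzalutamide alone and 982 without DMSO). No member passed with the linear dose, and with no filter ERBB3, CD276, PSCA and NECTIN4 did not (adjusted p = 0.073, 0.099, 0.13 and 0.050). For 20 uM against 10 uM, 4325 genes were called, against 868 with no filter and 838 to 5591 with 1 library left out (838 without 10 uM PTUPB, 1139 without 10 uM PTUPB plus enzalutamide, 2581 without enzalutamide alone and 2578 without DMSO). With no filter CD276, ERBB3 and NECTIN4 did not pass (0.079, 0.068 and 0.071). For enzalutamide, 0 genes were called, against 9 with TPM and 1 with limma-voom, and for the interaction 0, against 4 with the filter at 5 FPKM, 301 with TPM, 8 with total fragments and 23 with limma-voom. In pairs of single libraries, the margin of log2 1 was also passed with the pseudocount of 0.1 by STEAP4 at 20 uM PTUPB with enzalutamide (-1.18) and at 20 against 10 uM without it (-2.16), by PSCA at 20 uM without enzalutamide (-1.19) and, on the higher side, by NECTIN4 at 20 uM with it. After TPM it was passed by STEAP4 at 10 uM (-1.58) and at 20 against 10 uM (-1.10) without enzalutamide, by PSCA at 20 uM without it (-1.14) and by NECTIN4 at 20 uM with it (1.09), and not by CD276 at 20 against 10 uM without it (-0.79). The cause of these shifts was not tested.

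Directions that turned were all of members that were not called. With TPM the pooled enzalutamide effect was -0.011 for FOLH1, -0.13 for CD276, -0.27 for ERBB2 and -0.14 for NECTIN4, and the 10 uM PTUPB effect was -0.0081 for ERBB3. With total fragments the enzalutamide effect was -0.12 for ERBB2 and -0.017 for NECTIN4, and for ERBB2 it was -0.013 with the pseudocount of 0.1 and -0.057 with limma-voom. With 1 library left out, the enzalutamide effect ran from -0.27 to 0.16 for STEAP1, -0.57 to 0.28 for STEAP2, -0.10 to 0.33 for CD276, -0.40 to 0.16 for PSCA, -0.25 to 0.28 for ERBB2 and -0.39 to 0.16 for ERBB3. The 10 uM effect ran from -0.080 to 0.88 for STEAP2, -0.16 to 0.53 for CD276, -0.71 to 0.13 for PSCA, -0.19 to 0.57 for ERBB2 and -0.28 to 0.49 for ERBB3. The 20 uM effect ran from -3.24 to -2.41 for FOLH1, -3.71 to -3.01 for STEAP1, -4.24 to -2.68 for STEAP2, -1.38 to -0.69 for CD276, -1.62 to -0.78 for PSCA, -2.89 to -2.06 for ERBB2, -2.01 to -1.14 for ERBB3 and 0.95 to 1.37 for NECTIN4. No paired analysis was possible because each group holds 1 library and the labels give no replicate numbers. Depth limits STEAP4 and PSCA most, with as few as 0 and 27 fragments.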
